A study of Mus musculus with 5 samples.

Results

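The mitochondrial ribosomal protein genes, named Mrpl for the large and Mrps for the small ribosomal subunit, were followed through adipocyte differentiation of 3T3-L1 cells with and without the polymer P-G3. They were chosen by symbol alone: every gene in the deposited feature list whose symbol is Mrpl or Mrps followed by a number and at most 1 letter. This gave 78 of the 32285 listed genes, 49 with a large-subunit (Mrpl) and 29 with a small-subunit (Mrps) symbol, on 17 chromosomes. All 78 had UMIs (unique molecular identifiers, each counted as 1 captured RNA molecule) in every library, and all reached 5 CPM (UMIs scaled to a library total of 1000000) in every library.

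3T3-L1 is a clonal mouse fibroblast line that turns into fat cells when given an adipogenic cocktail. Single cells from 5 groups were sequenced, with 1 library per group. Day 0 cells had received neither cocktail nor polymer. Day 3 and day 6 cells with P-G3 had been given the cocktail plus P-G3, a PAMAM polymer, at 10 µg/mL in the medium from day 0. Day 3 and day 6 untreated cells had been given the cocktail without polymer, and every day 3 and day 6 culture had thus seen insulin, dexamethasone and IBMX. With 1 library per group no difference was tested. A model adding day and P-G3 effects, to which 5 libraries would leave 1 residual degree of freedom, was not fitted. All intervals below cover counting error only, not the spread between cultures.

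The 5 libraries kept between 2468 and 3893 cells and between 88432894 and 179221992 UMIs after cells with fewer than 500 detected genes or more than 20% mitochondrial UMIs had been left out. Cells under 10000 UMIs made up 47.0% of kept cells on day 6 with P-G3 and 37.6% on day 6 untreated, against 0.872% to 5.65% in the other 3 libraries. Between 4 and 7 barcodes were shared by any pair of libraries. The 10 adipocyte markers summed to 12753 CPM on day 3 with P-G3 and 8567 CPM without it, to 38725 CPM on day 6 with P-G3 and 32886 CPM without it, and to 175 CPM on day 0. The highest single marker held 28993 of these CPM on day 6 with P-G3 and 22929 without it. On day 6, 5 of the 10 were higher with P-G3 and 5 lower, with a median log2 ratio of 0.086. Of all genes of at least 5 CPM in either library, 24.7% were higher. The 8 preadipocyte markers summed to 1226 CPM on day 3 with P-G3 and 2216 CPM without it, to 799.6 CPM on day 6 with P-G3 and 1555 CPM without it, and to 6866 CPM on day 0. Of the 8, 1 was higher and 7 lower with P-G3 on either day, against 27.5% and 24.7% of genes higher. From day 0 to day 3 untreated 3 were higher and 5 lower, against 57% of genes higher. The 15 dividing-cell markers summed to 1438 CPM on day 3 with P-G3 and 1366 CPM without it, to 215 CPM on day 6 with P-G3 and 219 CPM without it, and to 1088 CPM on day 0. The part of the preadipocyte and dividing-cell shifts in the comparisons of whole libraries was not tested. Markers of macrophages (6 genes, 1.94 to 4.41 CPM in sum) and of endothelial cells (5 genes, 0.396 to 1.33 CPM in sum) were near 0 throughout.

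Mitochondrial ribosomes translate the messenger RNAs of the 13 protein-coding genes of the mitochondrial genome, all of which encode subunits of the respiratory chain and ATP synthase. Their proteins are all encoded in the nucleus, made by cytosolic ribosomes, imported and assembled on ribosomal RNAs that mitochondria transcribe themselves. Some descend from bacterial ribosomal proteins, and the rest are additions found in mitochondria. Differentiating fat cells build more mitochondria, which burn fatty acids and supply the carbon for lipid synthesis.

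The family as a whole took a larger share of the RNA in every library after day 0, and a larger one with P-G3 than without it. Its summed level was 11890 CPM (95% Poisson interval 11874 to 11906) on day 3 with P-G3 and 10206 CPM (10189 to 10222) without it. It was 13817 CPM (13795 to 13839) on day 6 with P-G3 and 11514 CPM (11492 to 11537) without it, and 9029 CPM (9014 to 9044) on day 0. As a share of all UMIs this was 1.19%, 1.02%, 1.38%, 1.15% and 0.903% in the same order. Genes with an Mrpl symbol accounted for 7626 of these CPM on day 3 with P-G3, 6485 without it, 8855 on day 6 with P-G3, 7327 without it and 5718 on day 0. Genes with an Mrps symbol held the remainder in each library, from 3311 CPM on day 0 to 4961 CPM on day 6 with P-G3. In sums over a library, more of this RNA per cell and more cells rich in it cannot be told apart.

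Although the proteins are assembled mostly at 1 copy per ribosome, their transcripts were counted at very different levels. Because each UMI marks the 3' end of 1 molecule, CPM here compares molecules between genes and is not divided by transcript length. Within a library the highest member exceeded the lowest by 24.4-fold to 34.0-fold, and the 5 highest held 16.1% to 19.0% of the family's UMIs. Averaged over the libraries the 5 highest were Mrpl12, Mrpl51, Mrpl20, Mrps6 and Mrps16, and the 5 lowest were Mrps27, Mrpl47, Mrps2, Mrpl37 and Mrpl44.

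Mrpl12 forms the flexible stalk of the large subunit that recruits translation factors, and has also been found bound to the mitochondrial RNA polymerase. It had 484 CPM on day 3 with P-G3 and 376 without it, 668 on day 6 with P-G3 and 534 without it, and 242 on day 0. It was the highest member on day 3 untreated and in both day 6 libraries, stood below Mrps6 on day 3 with P-G3, and stood below several members on day 0. Mrpl51, a large-subunit protein without a bacterial counterpart, had 478 CPM on day 3 with P-G3, 370.3 without it, 633 on day 6 with P-G3, 497 without it and 296 on day 0. Mrps27, an RNA-binding pentatricopeptide repeat protein of the small subunit, had 20.6 CPM on day 3 with P-G3, 15.4 without it, 22.2 on day 6 with P-G3, 15.7 without it and 12.3 on day 0. The stalk and the least counted small-subunit protein were thus both lowest on day 0 and highest on day 6 with P-G3.

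**Figure D1:**
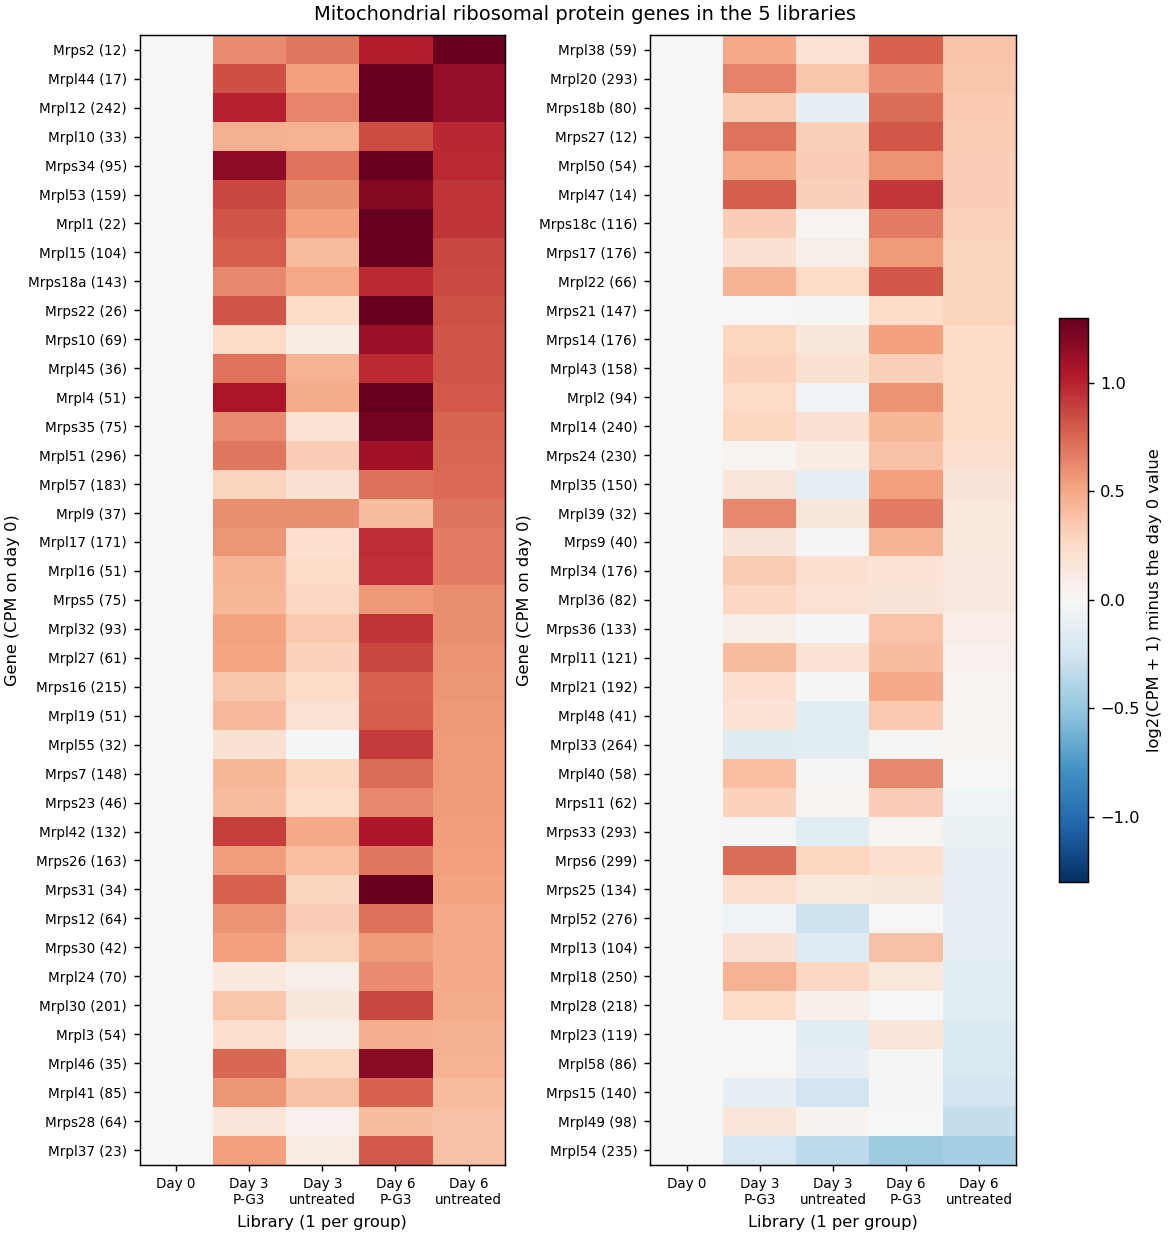
Each row is 1 of the 78 genes, with its day 0 CPM in brackets, and each column 1 library; colour gives log2(CPM + 1) minus the day 0 value, and genes are ordered by day 6 untreated over day 0. Values beyond the colour scale take its darkest colour. Red fills most of the columns after day 0, and Mrpl54 at the lower right is blue in all 4 of them.

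Between day 0 and day 6 without polymer, 64 of 78 members were higher and 14 lower, with a median log2 ratio of 0.38 and a range of -0.43 to 1.28. Of the 9693 genes that reached 5 CPM in one of these libraries, called measured here, 57% were higher, and their median was 0.13. A difference of at least 1.5-fold was reached upward by 21 members and downward by 0, against 28.5% and 19% of those genes. Their share of increases of that size was thus near the background, while decreases of that size were found among other genes and in no member. The middle 50% of members spanned 0.49 on the log2 scale and the middle 50% of all genes 1.08. With libraries scaled by trimmed means (TMM) or by medians of ratios the number of members higher was 55, against 49.1% and 48.5% of all genes.

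Both intervals of the time course carried part of this. From day 0 to day 3 untreated 63 members were higher and 15 lower (57% of 9454 genes were higher), with a median of 0.20; 49 were higher with TMM and 47 with medians of ratios, against 47.6% and 44% of all genes. From day 3 to day 6 untreated 63 were again higher and 15 lower (54.1% of 9583 genes were higher), with a median of 0.19. At 1.5-fold, 5 and 4 members were higher in these intervals and 0 lower, against 15.2% and 15.8% of genes higher and 9.47% and 12.6% lower. Across the 3 untreated libraries 52 members were higher at each later day, 4 were lower at each later day, and 60 were highest on day 6. Of the 9817 genes measured in any of the 3, these shares were 36.2%, 24.9% and 45.9%.

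The member with the largest ratio was Mrps2, a protein of the small subunit with a bacterial homolog. It had 12.2 CPM on day 0 and, untreated, 20.2 CPM by day 3 and 31.2 CPM by day 6, a day 6 over day 0 log2 ratio of 1.28 (interval 1.27 to 1.44). Mrpl44, a ribonuclease III-like protein of the large subunit, had 16.9 CPM on day 0 and, untreated, 24.9 CPM by day 3 and 38.5 CPM by day 6, a ratio of 1.15 (1.12 to 1.27). These were among the least counted members on day 0, whereas Mrpl12, with a ratio of 1.14 (1.12 to 1.16), was among the most counted.

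Proteins around the stalk did not move as 1 group. Mrpl10, which anchors Mrpl12 to the ribosome, had 66.1 CPM on day 6 untreated and 32.9 on day 0, a log2 ratio of 0.98. Mrpl53, located near the stalk, had 303 and 159 CPM in these libraries, a ratio of 0.93. Mrpl11, at the stalk base, had 126 and 121 CPM, a ratio of 0.06. Mrpl54, a mitochondrial addition to the same region, was the member with the largest decrease: 235 CPM on day 0 and, untreated, 186 CPM by day 3 and 173 CPM by day 6, a ratio of -0.43 (-0.46 to -0.41). Mrpl1, part of the separate L1 stalk near the tRNA exit site, had 42.6 and 21.9 CPM on day 6 untreated and day 0, a ratio of 0.93. The stalk region thus held members near both ends of the family.

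Other members named by rank at the upper end of day 6 untreated over day 0 were Mrps34 (186 and 94.98 CPM, ratio 0.97), a small-subunit protein specific to mitochondria, and Mrpl15 (191 and 104 CPM, ratio 0.87), which has a bacterial homolog. At the lower end, after Mrpl54, stood Mrpl49 with 79.4 and 98.3 CPM (-0.31) and Mrps15 with 118 and 140.3 CPM (-0.25). Mrpl58, a peptidyl-tRNA hydrolase that rescues stalled ribosomes and is also built into the large subunit, had 75.2 and 86.3 CPM, a ratio of -0.19. Mrpl23, Mrpl28, Mrpl18 and Mrpl13 completed the 8 lowest, with ratios of -0.19, -0.14, -0.13 and -0.12. Each of these 8 was within 1.5-fold of its day 0 level.

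Several members changed rank between the 2 intervals of the time course. Mrps10, a small-subunit protein with a bacterial homolog, had 74.1 CPM on day 3 untreated and 69.0 on day 0 (ratio 0.10), but 123 CPM on day 6 untreated, a day 6 over day 3 ratio of 0.72, the highest of that interval. Mrps22, Mrps35 and Mrpl55 likewise had small ratios in the first interval (0.24, 0.19 and -0.024) and larger ones in the second (0.59, 0.57 and 0.58). Mrpl9 had most of its difference early, with 56.5 CPM on day 3 untreated and 36.8 on day 0 (ratio 0.61). It had 60.3 CPM on day 6 untreated (day 6 over day 3 ratio 0.092). Mrpl18 and Mrps6 were higher on day 3 and lower again on day 6: Mrpl18 had ratios of 0.27 and -0.40, and Mrps6 of 0.28 and -0.39. Mrps6 shares its strand and position with Slc5a3, Mrps34 with Nme3 and Mrps24 with Urgcp, so counts of these 3 members are uncertain. A further 29 members overlap a counted gene on the opposite strand.

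The 3 Mrps18 paralogs, which descend from 1 bacterial protein and occupy different sites in the ribosome, differed in level and course. Mrps18a, which is built into the large subunit despite its name, had 261 CPM on day 6 untreated and 143 on day 0 (ratio 0.86). Mrps18b had 102 and 80.0 CPM (ratio 0.34), and Mrps18c, which is closest to the bacterial site, had 144 and 116 CPM (ratio 0.30). Mrps18a instead had the lowest P-G3 over untreated ratio of the 3, while its level with P-G3 was still the highest. On day 3 the P-G3 over untreated ratio was 0.12 for Mrps18a, 0.44 for Mrps18b and 0.29 for Mrps18c, and on day 6 it was 0.11, 0.38 and 0.37. The paralog with the largest ratio over time therefore had the smallest with P-G3. The day 6 untreated library enters both the time ratio and the day 6 P-G3 ratio.

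By symbol the day 6 untreated over day 0 medians were 0.37 for Mrpl genes, with 40 of 49 members higher, and 0.38 for Mrps genes, with 24 of 29 higher. Members with a bacterial homolog had a median of 0.35 (41 of 48 higher) and those specific to mitochondria 0.42 (22 of 29 higher). Neither division separated members that were higher from members that were lower. Mrps36 carries a small-subunit symbol but is also known as a component of the 2-oxoglutarate dehydrogenase complex; it had 142 CPM on day 6 untreated and 133 on day 0, a ratio of 0.089.

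With P-G3 the family was higher on both days while most genes were lower. On day 3, 73 members were higher and 5 lower in the P-G3 library than in the untreated one, with a median log2 ratio of 0.20 and a range of -0.06 to 0.58. Of 9215 genes, 27.5% were higher, and their median was -0.23. No member reached 1.5-fold in either direction on day 3, against 0.955% of genes higher and 15.1% lower at that size. On day 6, 70 members were higher and 8 lower, with a median of 0.29 and a range of -0.29 to 0.79; of 9137 genes 24.7% were higher, and their median was -0.34. The 1.5-fold mark was passed by 6 members upward and 0 downward on day 6, against 1.38% and 28.2% of genes. In all, 69 members were higher with P-G3 on both days and 4 lower on both days, against 19.9% and 66.9% of the 8733 genes measured on both.

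These counts depend on what the libraries are scaled to and on transcript length. Scaling by TMM or by medians of ratios brings the median of all genes in the P-G3 comparisons close to 0, from -0.23 on day 3 and -0.34 on day 6. Under either of these, all 78 members were higher with P-G3 on both days. Of all genes, 50.4% on day 3 and 49.1% on day 6 were higher with TMM, and 53.3% and 53% with medians of ratios. The number of members at 1.5-fold or more was 19 with TMM and 20 with medians of ratios on day 3 (3.95% and 4.85% of genes), and 47 and 52 on day 6 (9.56% and 12.2% of genes). With the median ratio of genes of like transcript length subtracted (20 bins of length), 67 members were higher on day 3, with a median of 0.23, and 61 on day 6, with a median of 0.26, against 49.9% of genes on either day. By that measure 10 members on day 3 and 18 on day 6 were at 1.5-fold or more, against 2.45% and 4.2% of genes, and 8 members on day 3 and 13 on day 6 had the opposite sign to that under total counts alone. The direction for the family was the same under each scaling, whereas for single members it was not. With TMM or medians of ratios only the 5 members lower on day 3 and the 8 lower on day 6 changed sign. With the length trend removed 11 members on day 3 and 17 on day 6 were lower, so members higher under total counts changed too.

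Mrps22, a small-subunit protein specific to mitochondria, had the largest day 3 ratio and the second largest day 6 ratio with P-G3. It had 46.2 CPM on day 3 with P-G3 and 30.6 without it, 80.8 on day 6 with P-G3 and 46.6 without it, and 25.8 on day 0. The log2 ratios were 0.58 (0.54 to 0.65) on day 3 and 0.78 (0.74 to 0.85) on day 6. Mrps31, another mitochondrial addition to the small subunit, had 57.8 CPM on day 3 with P-G3 and 41.4 untreated (ratio 0.47), and 84.4 CPM on day 6 with P-G3 and 48.5 untreated (ratio 0.79). Mrpl4, a large-subunit protein with a bacterial homolog that lines the exit tunnel, had 107 CPM on day 3 with P-G3 and 71.2 untreated (ratio 0.58), and 143 CPM on day 6 with P-G3 and 88.5 untreated (ratio 0.68). Mrpl46, Mrpl47 and Mrps34 were also among the 8 highest on both days, with day 6 ratios of 0.72, 0.60 and 0.57.

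At the other end, Mrps2 had 19.3 CPM on day 3 with P-G3 and 20.2 untreated (ratio -0.062), and 25.8 CPM on day 6 with P-G3 and 31.2 untreated (ratio -0.26, -0.35 to -0.20). Mrpl9 had 49.0 CPM on day 6 with P-G3 and 60.3 untreated (ratio -0.29, -0.35 to -0.24), after a day 3 ratio of -0.0015. Mrpl10 had 60.0 and 66.1 CPM in the same libraries (ratio -0.14). Mrps2 and Mrpl10 were among the members with the largest ratio from day 0 to day 6 untreated, so they stood near opposite ends in the differentiation and polymer comparisons. The day 6 untreated library enters both of these comparisons.

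**Figure D2:**
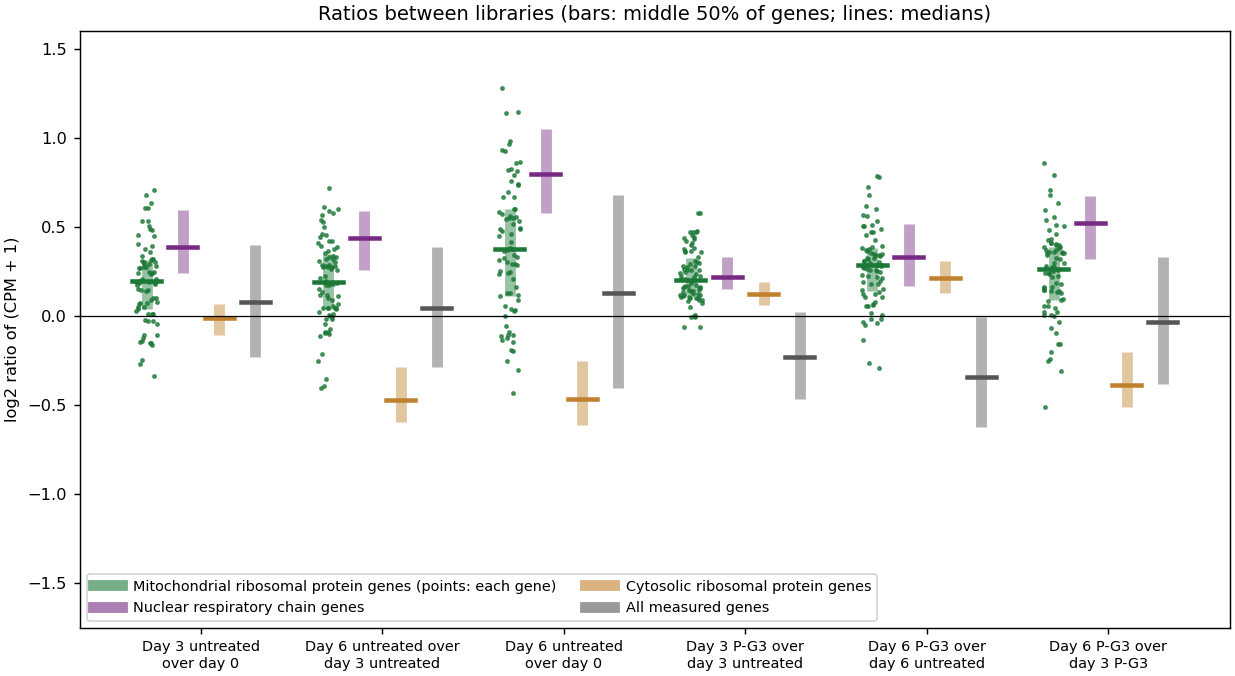
Log2 ratios of CPM + 1 in 6 comparisons; green points are the 78 genes, bars span the middle 50% of each group of genes and lines mark medians. The green median lies above 0 in all 6 comparisons, with nuclear respiratory chain genes in purple and cytosolic ribosomal protein genes in ochre; the grey median of all measured genes is below 0 in both P-G3 over untreated comparisons and just below 0 from day 3 to day 6 with P-G3.

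In the 2 P-G3 libraries the time course ran as in the untreated ones: from day 3 to day 6 with P-G3, 67 members were higher and 11 lower (47.7% of 8987 genes were higher), with a median of 0.26. Mrps10 was again highest, at 151 CPM on day 6 with P-G3 and 82.9 on day 3 with P-G3 (ratio 0.86), and Mrps6 lowest, at 347 and 496 CPM (ratio -0.51). In the untreated libraries Mrps10 was also the highest of this interval, and Mrps6 the lowest but 1. At 1.5-fold, 6 members were higher and 0 lower in the P-G3 libraries, against 14.3% and 15.1% of genes.

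Transcript length moved with the P-G3 comparisons across all genes but not across the members. Over the measured genes the Spearman correlation between the longest annotated transcript and the P-G3 over untreated log2 ratio was -0.60 on day 3 and -0.62 on day 6, given as a description since genes are not independent. Over the 78 members it was 0.11 and 0.07. Members are short, with a median of 1327.5 nt against 3107 nt for the genes measured on day 3. Of members of at least 3000 nt, all 17 were higher with P-G3 on day 3, with a median of 0.24, against 9.93% of 4816 other genes of that length, with a median of -0.40. On day 6, 16 of the 17 were higher, with a median of 0.31, against 7.08% of 4743 other genes and a median of -0.55. Among genes under 1500 nt the medians were closer, at 0.20 for 46 members and 0.11 for 1386 other genes on day 3, and at 0.29 and 0.15 on day 6. In this class 43 of the 46 members were higher on either day, against 70.4% of the other genes on day 3 and 72.7% on day 6. The longest member, Mrpl17 at 7300 nt, had 333 CPM on day 6 with P-G3 and 272 untreated, a ratio of 0.29.

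**Figure D3:**
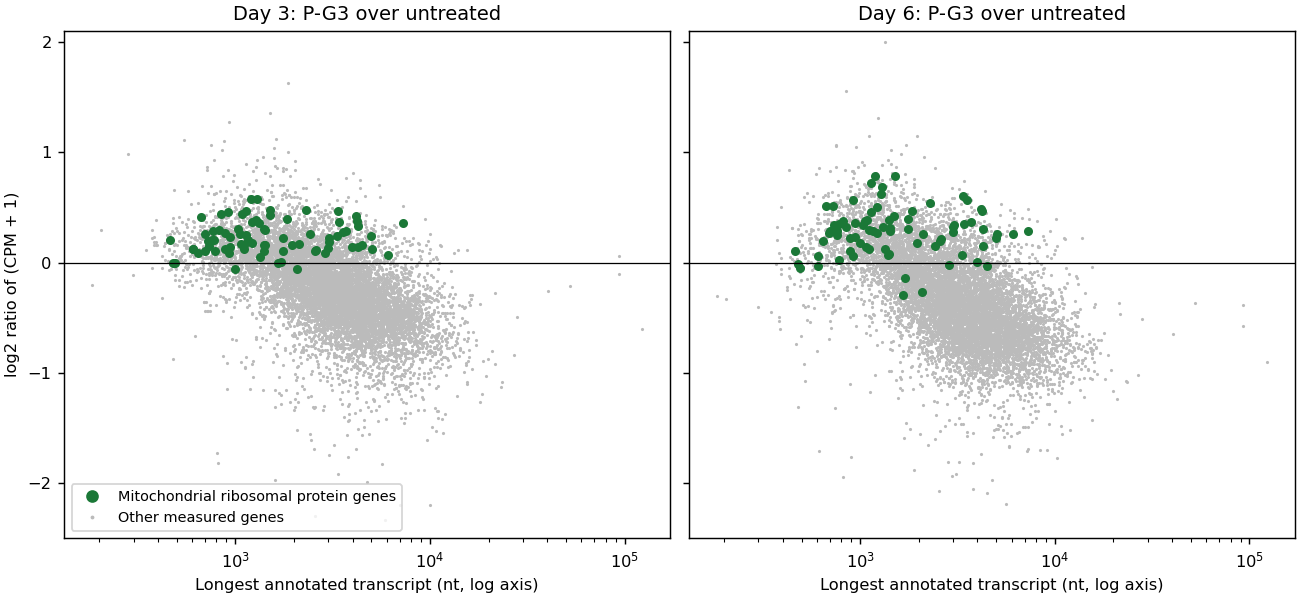
Log2 ratio of P-G3 over untreated against the longest annotated transcript (nt, log axis) on day 3 and day 6, with the 78 genes in green and other measured genes in grey. Grey points fall with length, and 17 green points at 3000 nt or more have medians of 0.24 on day 3 and 0.31 on day 6.

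Among cells of at least 10000 UMIs after day 0, members were more abundant in those richest in adipocyte transcripts than in those poorest. Kept cells of at least 10000 UMIs were ranked by the share of their UMIs in 10 adipocyte marker genes and divided into 4 equal quartiles. On day 3 with P-G3 the family's level was 8561, 10076, 12130 and 14164 CPM from the lowest to the highest quartile, and on day 3 untreated it was 8264, 8158, 9495 and 12989 CPM. On day 6 with P-G3 it was 11546, 14160, 14384 and 14354 CPM, and on day 6 untreated 8466, 11367, 12138 and 12794 CPM. On day 0 it was 9374, 9095, 8970 and 8631 CPM, the opposite order. The day 0 ranking rests on few adipocyte UMIs, 72.6% of them in the highest quartile from Lpl, which encodes lipoprotein lipase. After day 0 the ranking rests mostly on the marker Fabp4. In the highest quartile it gave 86.5% of marker UMIs on day 3 with P-G3 and 83.8% untreated, and 75.5% and 72.7% on day 6. The day 6 with P-G3 library was level over its upper 3 quartiles. Kept cells under 10000 UMIs are outside these quartiles. Those under 5000 UMIs had 15904 CPM on day 3 with P-G3 and 12412 untreated, 13416 and 11985 on day 6, and 7758 on day 0. Those of 5000 to 10000 UMIs had 14373 and 11428 CPM on day 3, 13685 and 11959 on day 6, and 8552 on day 0.

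Cell depth moved with these quartiles: the median UMIs per cell were 55892 in the highest and 32271 in the lowest quartile on day 3 untreated, and 67094 and 35402 on day 6 untreated. Among cells of 30000 to 60000 UMIs alone, where the depths lie closer, the level in the highest and the lowest quartile was 12479 and 8990 CPM on day 3 with P-G3, 11812 and 8566 without it, 13467 and 11187 on day 6 with P-G3, 11484 and 8109 without it, and 8650 and 9366 on day 0. The differences were smaller there and had the same direction in all 5 libraries.

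**Figure D4:**
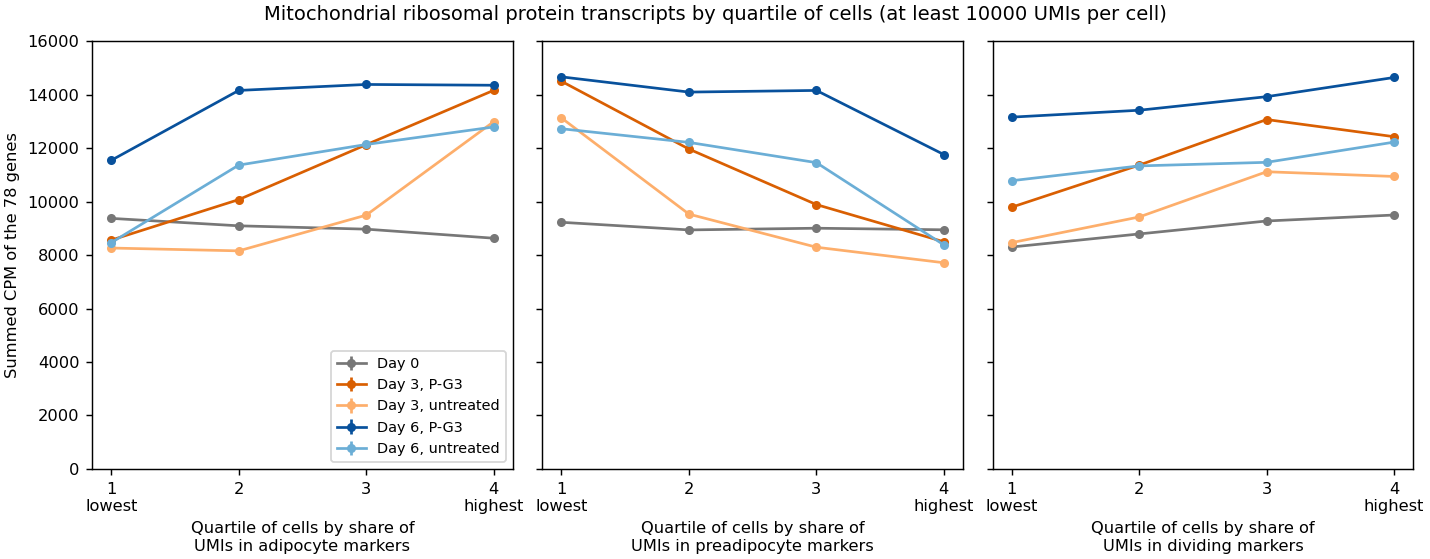
Summed CPM of the 78 genes in quartiles of cells ranked by adipocyte, preadipocyte or dividing-cell markers, in the 5 libraries; bars are 95% Poisson intervals, smaller than the points. In the 4 libraries after day 0 the level is higher in the highest than in the lowest adipocyte-marker quartile, and the reverse holds for preadipocyte markers.

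Ranking by 8 preadipocyte markers gave the mirror image after day 0. From the quartile with the fewest to the one with the most of these transcripts, the family's level was 14502, 11967, 9890 and 8498 CPM on day 3 with P-G3, and 13130, 9533, 8295 and 7713 CPM on day 3 untreated. On day 6 the highest quartile had 11761 CPM with P-G3 and 8381 CPM untreated, against 14668 and 12726 CPM in the lowest. By 15 dividing-cell markers the highest quartile exceeded the lowest in each library, for instance with 9499 against 8302 CPM on day 0 and 10942 against 8466 CPM on day 3 untreated. Cells richer in dividing-cell transcripts were also deeper, with a median of 57656 UMIs in the highest and 37941 in the lowest quartile on day 0.

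Gene by gene, 68 members were higher in the highest than in the lowest adipocyte-marker quartile in all 4 libraries after day 0, 3 were lower in all 4, and 7 were mixed; of 8418 genes measured in all 4, 31.3% were higher and 28.2% lower in all. On day 3 with P-G3 74 of 78 members were higher (54.7% of 9154 genes), 51 of them by at least 1.5-fold (21.9%), with a median log2 ratio of 0.73. On day 3 untreated 73 were higher (48.7% of 9515 genes), 46 by at least 1.5-fold (16.4%), with a median of 0.63. On day 6 with P-G3 69 were higher (51.3% of 8821 genes), 14 by at least 1.5-fold (15.8%), with a median of 0.36. On day 6 untreated 72 were higher (45.8% of 9626 genes), 41 by at least 1.5-fold (17.1%), with a median of 0.61. On day 0, 69 were lower (39.8% of 9061 genes), with a median of -0.13, and none by 1.5-fold (1.05% of genes). Cells of 1 library share their culture and are not replicates.

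Mrpl12 had the widest span within both day 3 libraries. It stood at 733 CPM in the highest and 169 in the lowest quartile on day 3 with P-G3 (ratio 2.11), and at 657 and 188 on day 3 untreated (1.80). On day 6 it stood at 719.5 and 413 CPM with P-G3 (0.80), and at 649 and 233 untreated (1.47). On day 0 the order was reversed, at 198 and 270.1 CPM (-0.44). Its level in the quartile richest in adipocyte transcripts thus lay between 649 and 733 CPM in every library after day 0, while its level in the lowest lay between 169 and 413 CPM.

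Mrpl20, whose bacterial homolog is needed early in assembly of the large subunit, had hardly any day 6 over day 3 difference in the untreated libraries as a whole (0.0039). Between quartiles of cells it differed more than most members, with ratios of 1.69 on day 3 with P-G3, 1.34 without it, 0.62 on day 6 with P-G3 and 1.05 without it. The 13 members at least 1.5-fold higher in the highest quartile in all 4 libraries were Mrpl3, Mrpl12, Mrpl15, Mrpl20, Mrpl44, Mrpl46, Mrpl51, Mrpl53, Mrpl55, Mrps2, Mrps7, Mrps22 and Mrps34. Of the 8418 genes, 7.6% reached that size in all 4. Only Mrpl23, Mrpl33 and Mrps6 were lower in all 4 libraries. Mrpl23, which sits at the tunnel exit, had 88.3 CPM in the highest and 122 in the lowest quartile on day 3 untreated (ratio -0.46), and 99.0 and 119 on day 6 untreated (-0.26). Mrps6 had 291 and 445 CPM on day 6 with P-G3 (-0.61), with its count uncertain because of the overlap with Slc5a3.

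**Figure D5:**
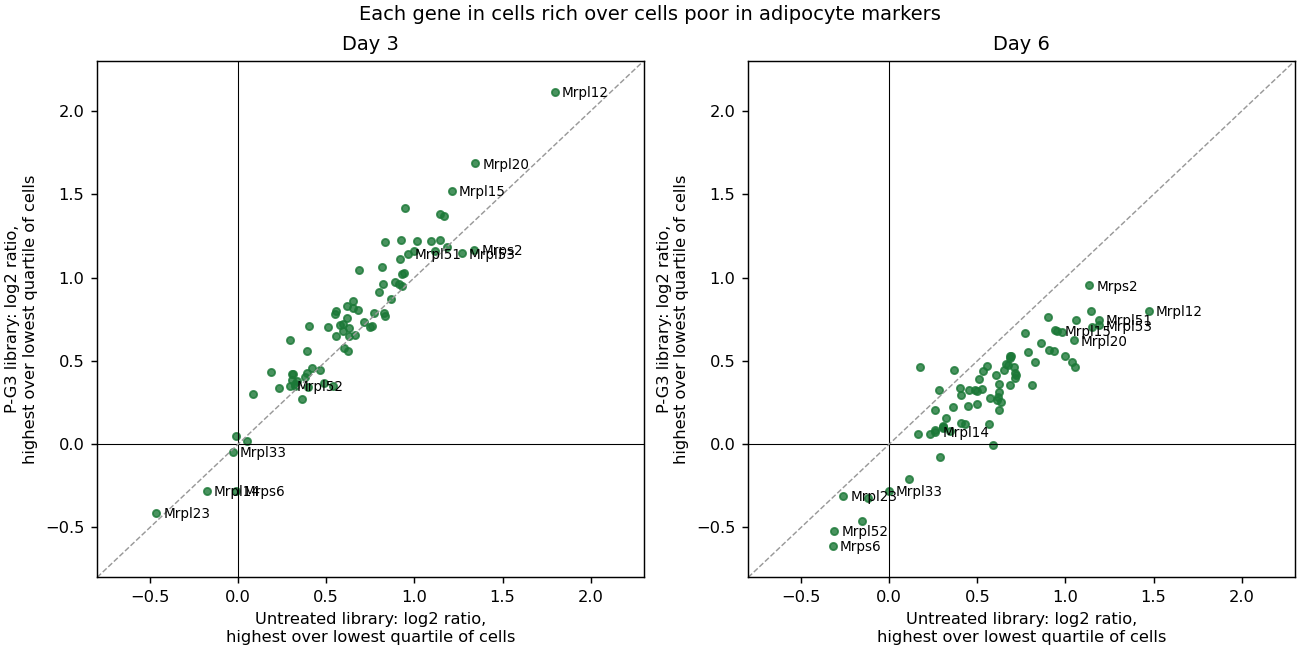
Log2 ratio of the highest over the lowest adipocyte-marker quartile for each of the 78 genes, with P-G3 (vertical axis) against untreated (horizontal axis) on day 3 and day 6; the dashed line marks equal values. Mrpl12 is at the upper right on day 3, at 2.11 with P-G3 and 1.80 untreated, and most day 6 points lie under the line.

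The P-G3 difference was also seen among cells with like shares of UMIs in the adipocyte markers as a sum. Most marker UMIs came from Fabp4, itself at 10918 CPM on day 3 with P-G3 and 6964 untreated. In cells of at least 10000 UMIs with 3000 to 10000 CPM of adipocyte markers, the family's level was 11597 CPM on day 3 with P-G3 and 10934 CPM without it, and 10892 CPM on day 6 with P-G3 and 8745 CPM without it. With 10000 to 30000 CPM of markers it was 13755 CPM on day 3 with P-G3 and 13170 CPM untreated, and 13722 CPM on day 6 with P-G3 and 11443 CPM untreated. At 30000 CPM of markers or more it was 14660 CPM on day 3 with P-G3 and 13884 CPM untreated, and 14386 CPM on day 6 with P-G3 and 12578 CPM untreated. Below 1000 CPM of markers on day 3 it was 8428 CPM with P-G3 and 8231 CPM untreated. P-G3 libraries held more of the marker-rich cells: 265 cells on day 3 with P-G3 and 154 untreated had 30000 CPM or more. Depth was not matched in these ranges. At 30000 CPM or more the median UMIs per cell were 75753 on day 3 with P-G3 and 61939.5 untreated. On day 6 they were 61701 with P-G3 and 65323 untreated. The part of depth in these differences was not tested.

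In kept cells of at least 5000 UMIs, the median number of members detected was 72 of 78 on day 3 with P-G3 and 68 untreated. It was 75 on day 6 with P-G3 and 74 untreated, and 71 on day 0. After each cell had been thinned to 5000 UMIs the medians were 34 on day 3 with P-G3 and 30 untreated, 39 on day 6 with P-G3 and 34 untreated, and 30 on day 0. Kept cells under 5000 UMIs are in neither set of medians. They numbered 93 on day 3 with P-G3 and 96 untreated, 1461 on day 6 with P-G3 and 813 untreated, and 10 on day 0. Across thinned cells the variance of the family's UMI count was 5.69 times its mean on day 3 with P-G3 and 5.65 times untreated, 4.299 times on day 6 with P-G3 and 5.17 times untreated, and 1.83 times on day 0, where random sampling alone gives close to 1. Cells after day 0 were thus more unlike each other in this family than day 0 cells.

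Genes that work with these proteins are set beside the same background: of all measured genes 57% were higher on day 6 untreated than on day 0 (median 0.13), 27.5% on day 3 with P-G3 than untreated (median -0.23), and 24.7% on day 6 with P-G3 than untreated (median -0.34). Of the 29 translation factors and tRNA synthetases of mitochondria measured, 27 (93.1%) were higher on day 6 untreated than on day 0, with a median of 0.67. With P-G3, 14 (48.3%) were higher on day 3, with a median of -0.05, and 10 (34.5%) on day 6, with a median of -0.10. Tufm, the elongation factor that brings tRNAs to the ribosome, was higher with P-G3 like the ribosomal proteins, at 61.6 CPM on day 3 with P-G3 and 46.3 untreated. Iars2, the mitochondrial isoleucyl-tRNA synthetase, stood at 51.5 CPM on day 6 with P-G3 and 86.5 untreated, and at 31.0 on day 0. Lars2, the leucyl-tRNA synthetase, stood at 123 CPM on day 6 with P-G3, 209 untreated and 19.5 on day 0, but its count is uncertain because part of the gene resembles mitochondrial ribosomal RNA.

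Of 23 assembly factors measured, 19 (82.6%) were higher on day 6 untreated than on day 0 (median 0.41), 14 (60.9%) on day 3 with P-G3 than untreated (median 0.05), and 13 (56.5%) on day 6 with P-G3 than untreated (median 0.00). Rpusd3, known in human cells as a pseudouridine synthase for the large ribosomal RNA, was higher in each comparison, at 47.3 CPM on day 3 with P-G3 and 31.5 untreated, 86.1 on day 6 with P-G3 and 58.1 untreated, and 10.9 on day 0. Of the 5 ribosomal proteins that do not carry an Mrp symbol, 4 were higher on day 6 untreated than on day 0, with a median of 0.19. Ptcd3, an RNA-binding small-subunit protein, had 70.9 CPM on day 6 untreated and 27.8 on day 0. Dap3, a GTP-binding small-subunit protein, had 116 and 102 CPM in these libraries, and Gadd45gip1, a large-subunit protein, had 83.1 and 96.6 CPM, a ratio of -0.22.

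Regulators known to act on mitochondrial genes had courses of their own. The coactivator Ppargc1b had 16.3 CPM on day 3 with P-G3 and 14.3 untreated, 27.6 on day 6 with P-G3 and 31.4 untreated, and 2.43 on day 0. Nrf1, a factor that binds many promoters of mitochondrial proteins, had 14.0 CPM on day 3 with P-G3 and 17.4 untreated, 15.8 on day 6 with P-G3 and 17.4 untreated, and 17.9 on day 0. Yy1 had 80.1 CPM on day 3 with P-G3 and 116 untreated, 74.7 on day 6 with P-G3 and 114 untreated, and 118 on day 0. Gabpa, an ETS factor, had 16.6 CPM on day 6 with P-G3 and 27.8 untreated. Of the 11 regulators measured on day 6, 1 was higher with P-G3 (24.7% of all genes), and their median of -0.38 was near that of all genes, -0.34.

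Nuclear genes of the respiratory chain and ATP synthase, whose products join those made by mitochondrial ribosomes, were higher by more than the ribosomal proteins over time. All 75 were higher on day 6 untreated than on day 0, with a median of 0.80, and their P-G3 medians were 0.22 on day 3 (73 higher) and 0.33 on day 6 (70 higher). The 13 mitochondrially encoded protein genes summed to 60239 CPM on day 3 with P-G3 and 62623 untreated, 59878 on day 6 with P-G3 and 71773 untreated, and 31538 on day 0. None of these 13 was higher on day 6 with P-G3 than untreated, where 70 of 78 ribosomal protein genes were. Cytosolic ribosomal protein genes ran against the family over time, with 6 of 77 higher on day 6 untreated than on day 0 (median -0.47), and with it under P-G3, with 72 of 77 higher on day 3 (median 0.13) and 68 on day 6 (median 0.21). None of these differences between groups of genes was tested.

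Promoters of this family are known for sites of NRF1, of ETS factors such as GABP, and of YY1, and the reference sequences were searched for the letters of each. RefSeq promoters (build GRCm38.p6, 250 bases before to 50 after each start) were found for 69 members. The NRF1 motif (GCGC, any 2 bases, GCGC; all motifs on either strand) was in the promoters of 14 of the 69 (20.3%), against 6.997% of 27025 genes in the table and 16.6% of those with at least 5 CPM here. The ETS motif CCGGAAG was in 26 (37.7%), against 9.93% and 22.7%. The YY1 motif ATGGCG was in 19 (27.5%), against 10.2% and 19.5%. None of the 3 was found in 23 members, 1 in 33, and 2 in 13, and no 2 motifs overlapped. The day 6 untreated over day 0 median was 0.57 for members with the NRF1 letters and 0.32 for those without, 0.34 and 0.36 for ETS, and 0.48 and 0.31 for YY1. The day 6 P-G3 over untreated medians were 0.24 with and 0.28 without the NRF1 letters, 0.22 and 0.30 for ETS, and 0.26 and 0.29 for YY1. A match of letters is a description and not a binding site.

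Windows of 90 bases ending just before the RefSeq start are shown for members the results turn on: 3 with NRF1 letters (Mrpl12, Mrpl44 and Mrpl30, the last also with YY1 letters), 1 with ETS letters (Mrps22) and 1 with none (Mrpl20). Capitals mark the motifs. The strand is that of the gene and the build GRCm38.p6.
Mrpl12, chr11:120484547-120484636, + strand: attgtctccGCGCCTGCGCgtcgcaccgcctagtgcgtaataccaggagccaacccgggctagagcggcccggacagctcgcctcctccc
Mrpl44, chr1:79775928-79776017, + strand: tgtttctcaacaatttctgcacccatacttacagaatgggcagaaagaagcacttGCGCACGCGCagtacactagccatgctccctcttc
Mrpl30, chr1:37890387-37890476, + strand: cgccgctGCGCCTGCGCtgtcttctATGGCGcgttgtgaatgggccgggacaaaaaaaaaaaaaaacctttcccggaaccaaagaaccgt
Mrps22, chr9:98601680-98601769, - strand: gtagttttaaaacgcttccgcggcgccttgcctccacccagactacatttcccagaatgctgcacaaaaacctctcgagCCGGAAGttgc
Mrpl20, chr4:155802788-155802877, + strand: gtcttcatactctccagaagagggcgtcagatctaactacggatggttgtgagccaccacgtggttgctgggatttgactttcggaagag
Mrpl12 and Mrpl44, which both hold the NRF1 letters, were among the 3 members with the largest day 6 untreated over day 0 ratio. The largest of these ratios was that of Mrps2, whose promoter held the YY1 letters but not the NRF1 letters. Mrpl30, which also holds the NRF1 letters, had a ratio of 0.48. Mrpl28, which holds them as well, was lower on day 6 untreated than on day 0, at 198 and 218 CPM. Mrpl20, with none of the 3 motifs, was among those most different between cells rich and poor in adipocyte transcripts.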

How the data were processed

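The kit was the 3' v2 version of 10x Genomics Chromium, per the labels' protocols, and each group gave 1 library of 3T3-L1 cells. The deposited matrices hold UMI counts per gene and barcode, with no normalization by the authors. GRCm38 and Cell Ranger 3.1.0 are named per the submitters' processing notes, while the matrix headers name 5.0.1, so the version is uncertain. Reads were not reprocessed, and doublets were not removed.

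Cells with at least 500 genes and at most 20% mitochondrial UMIs were kept, counts were summed per library and scaled to CPM, and ratios were log2 of CPM + 1 in both libraries, which understates differences of low genes. A gene was measured in a comparison if it reached 5 CPM in at least 1 of the 2 libraries, and 1.5-fold was the size counted. Intervals are exact Poisson for levels and conditional binomial, without the added 1, for ratios. The deepest library resolves 0.0167 CPM and the shallowest 0.0339 CPM (3 counts). The ratio step was checked on simulated counts. Members and gene lists were chosen with earlier results of these data known. Named members are the 8 highest and 8 lowest per comparison among those with at least 20 CPM, the 5 highest and 5 lowest levels, and the Mrps18 paralogs; other genes were named by size or role, some after their values were seen. Transcript lengths and overlaps come from GENCODE vM21. Tools were Python 3.11.15, numpy 2.4.6, pandas 2.3.3, scipy 1.17.1, R 4.3.3 and edgeR 4.0.16 (TMM factors only). The ranges by fixed marker CPM, the 30000 to 60000 UMI quartiles and the length classes were added after seeing the data.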

Additional observations from a re-analysis of the deposited data

Results flagged for a closer look

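The direction of a few members differed between libraries compared in the same way, each with counting intervals that leave out 0 on both sides, and none of these differences was tested. The P-G3 over untreated log2 ratio of Mrpl54 was 0.12 on day 3 and -0.033 on day 6, and that of Mrps24 was -0.061 on day 3 and 0.18 on day 6. The day 6 over day 3 log2 ratio of Mrpl9 was -0.20 with P-G3 and 0.092 untreated, and that of Mrpl23 was 0.15 with P-G3 and -0.045 untreated. With cells ranked by adipocyte markers, the members' median log2 ratio of the highest over the lowest quartile was 0.73 on day 3 with P-G3 and 0.63 without it, 0.36 on day 6 with P-G3 and 0.61 without it, against -0.13 on day 0; this difference was not tested.

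Barcodes left out by the cell filter also held member transcripts. Their summed member level was 4210 CPM in 61 barcodes on day 3 with P-G3, 4430 CPM in 97 without it, 6350 CPM in 2173 on day 6 with P-G3, 6475 CPM in 2814 without it and 2156 CPM in 37 on day 0. Mitochondrially encoded genes took 40.8% to 51.9% of the UMIs in these barcodes.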

How the results depend on the processing

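No paired analysis was possible because each group has 1 library and no result here comes from a test. Of 144 values for the counts and medians of members under 12 alternatives, 128 stayed near the main value. Near meant within 1.5 times the main count, or within the 95% order-statistic range of the members' main median. The other 16 values were medians that moved, and no median changed direction. No count could move upward, because 1.5 times any main count exceeds the 78 members. The unmoved counts therefore add little to the tally. Leaving out the floor could not move any value, because all 78 members reached 5 CPM in every library. A 20 CPM floor and a smaller pseudocount changed the sign of no member, so these alternatives add little to the tally. With TMM scaling the median was 0.089 for day 3 untreated over day 0, 0.23 for day 6 untreated over day 0, 0.44 for day 3 P-G3 over untreated and 0.62 for day 6 P-G3 over untreated. With medians of ratios these were 0.046, 0.22, 0.47 and 0.67, and 0.38 for day 6 over day 3 with P-G3. In cells of 30000 to 60000 UMIs they were 0.11, 0.26, 0.13 and 0.33. The members' median minus that of all genes was 0.044, 0.092, 0.36 and 0.65 there, against 0.12, 0.24, 0.43 and 0.63 in the main setting. In these cells the time-course differences from day 0 thus lay close to those of all genes, and the P-G3 differences did not. Without the 5% of cells with most UMIs, day 3 untreated over day 0 was 0.13. As a mean over cells it was 0.10, where day 6 over day 3 untreated was 0.30. Minus the median of all genes, these values were 0.058, 0.025 and 0.36. Members at 1.5-fold or more numbered 0 for day 3 P-G3 over untreated and 0 to 20 over the alternatives (0.955% of genes, and 4.85% where it was 20). On day 6 this was 6 and 0 to 52 (1.38% of genes, and 12.2% where it was 52). It was 0 there as a mean over cells (55 of 9007 genes) and 18 with the length trend removed (4.2% of genes). For day 6 untreated over day 0 it was 21 and 14 to 29 (28.5% of genes, 2807 of 9719 where it was 14 and 3027 of 9783 where it was 29). For day 3 untreated over day 0 it was 5 and 0 to 5 (15.2% of genes). For day 6 over day 3 untreated it was 4 and 1 to 11 (15.8% of genes, and 1401 of 9591 where it was 11). With P-G3 it was 6 and 6 to 11 (14.3% of genes). Up to 16 single members changed sign under a scaling. The highest over lowest adipocyte-marker quartile of the family sum was 0.73 (day 3 P-G3), 0.65 (day 3 untreated), 0.31 (day 6 P-G3) and 0.60 (day 6 untreated); over all kept cells it was 0.66 on day 3 untreated, and on day 6 it was 0.29 with P-G3 and 0.55 untreated, and in cells of 30000 to 60000 UMIs 0.47, 0.46, 0.27 and 0.50 in the first order. The cause of these shifts was not tested.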
